A study of Mus musculus with 101 samples.

Results

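Hk1, Hk2, Gpi1, Pfkl, Pfkp, Aldoa, Pgk1, Eno1, Pkm and Ldha, 10 genes that encode enzymes of glycolysis, were followed in germ cells of the fetal mouse gonad. They were taken by name as enzymes of the pathway, and all 10 had a row among the 15423 genes of the deposited table of normalized counts. Glycolysis splits glucose into pyruvate in the cytosol and gains ATP and NADH on the way. Hexokinase traps glucose as glucose 6-phosphate, phosphofructokinase commits the sugar to the pathway, pyruvate kinase makes pyruvate, and lactate dehydrogenase converts pyruvate and lactate into each other. Several steps have isoenzymes encoded by separate genes, which tissues use in different proportions, and germ cells of the fetal ovary enter meiosis while those of the fetal testis stop dividing.

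The embryos were of the OG2 strain, in which the Pou5f1 promoter drives EGFP, and EGFP-positive primordial germ cells (PGCs) were sorted from the gonads of single embryos and made into cDNA with an oligo(dT) primer. Pregnant F0 females had been dosed by mouth with benzo[a]pyrene (BaP) in sesame oil, at a low (0.033), middle (0.2) or high (2) dose in mg/kg-day, or with the oil alone as vehicle. F1 embryos were the direct offspring of those females, dosed from E6.5 to E11.5, and F2 and F3 embryos descended from females dosed from E6.5 to E15.5. All gonads were collected at E13.5, and all groups share the strain, the reporter and the sort. There were 53 male and 48 female embryos from 56 dams. The F1 groups held 5 female and 5 male vehicle embryos, 2 and 2 at 0.033, 5 and 6 at 0.2, and 5 and 8 at 2 mg/kg-day. The F2 groups held 6 and 6 vehicle embryos and 3 of each sex at each dose. The F3 groups held 6 and 6 vehicle embryos, 4 and 4 at 0.033, 2 and 4 at 0.2, and 4 and 3 at 2 mg/kg-day.

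Values are normalized counts on a per-million scale, written here as counts. In 99 of the embryos the values were whole multiples of a single step, which gave back the counts behind them, called reads here: 5004382 to 87240533 an embryo, with a median of 7789673. These are counts assigned to genes of the table, not all mapped reads, and whether the paired-end libraries were counted as reads or as pairs is not known. A set of 11 F1 libraries from 6 dams was far deeper than the rest, with at least 21247642 reads against at most 9745816 in the other F1 libraries. At this depth the least abundant member, Hk1, rested on 3 reads in its lowest embryo and Pfkl on 7, while Ldha had at least 17, Pfkp 35, Hk2 52 and each other member at least 309. The 10 genes lay on chromosomes 10 (Hk1, Pfkl), 6 (Hk2), 7 (Gpi1, Aldoa, Ldha), 13 (Pfkp), X (Pgk1), 4 (Eno1) and 9 (Pkm).

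The label of the cells was checked against marker genes. The 8 germ cell markers summed to a median of 3874 counts in the 17 vehicle females and 3979 in the 17 vehicle males, and Dppa3, a germ cell chromatin factor, was the most abundant of them in both. By limma 3 of the 8 were higher in vehicle males (Dppa3, Nanos3 and Pou5f1) and 4 lower (Mael, Dazl, Kit and Ddx4), so the similar sums hold moves in both directions. Markers of Sertoli cells, the supporting cells of the testis cords, differed strongly by sex: their summed counts ran from 13.8 over a median of 21.0 to 36.5 in vehicle females and from 74.0 over 703 to 1397 in vehicle males. All 9 Sertoli markers were higher in vehicle males by limma (adjusted p under 0.05), with Cst9 the most abundant in males (mean 410, SD 226) and Aard in females (mean 21.1, SD 6.53), and Sox9, Amh, Dhh and Cst9 were at 0 in most of the females. The sums of the other somatic lists were low: medians of 3.61 and 5.08 in vehicle females and males for pregranulosa cells (top genes Wnt4 and Wnt6), 3.14 and 5.72 for fetal Leydig cells (Insl3 and Hsd3b1) and 1.44 and 2.73 for stroma (Dcn). Medians were 41.4 and 35.9 for endothelium (Pecam1, which germ cells also express) and 23.3 and 15.8 for macrophages (C1qb). Erythroid transcripts were uneven, with median sums of 1.40 and 1.41 but up to 4768 in a single vehicle male. Hba-a1 and Hba-a2 shared the top place, with the same mean and highest value in each vehicle sex (highest 2378 in males). The sums count both genes, and how the reads were divided between them was not tested. An F3 male of the 0.2 mg/kg-day group, D1390.5, had the lowest male germ cell score (the mean log2 value of that list's markers) of the 53 males, 2.23, with every female at or below 0.997. Every count of members past the test in the male and female comparisons below was the same without that embryo.

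The first comparison asked how glycolysis genes differ between male and female PGCs without exposure, in 17 males against 17 females of the vehicle lineages. Hk2, Aldoa, Eno1 and Pkm were higher in males and Ldha was higher in females. So 4 of 10 members rose in males against 27.9% of all 13288 genes tested, and 1 of 10 fell against 28.6% of all genes (limma, adjusted p under 0.05). Sex differences were thus as common over all genes as among the members. For the counts below of embryos that lie outside the other sex, no share over all genes is given. The median log2 fold change of males over females was 0.18 for the members and 0.00 for all genes. In bulk RNA, fewer cells of a type and less RNA per cell cannot be told apart.

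At the first step, Hk2, the insulin-responsive hexokinase of muscle and fat that is common in growing cells, ran from 4.57 over a median of 8.89 to 12.9 counts in vehicle females and from 6.25 over 19.9 to 28.3 in vehicle males. Of the 17 males, 14 lay above every female, and the lowest male, a deep F1 library, fell among the females. The log2 fold change was 1.0 (SE 0.15, adjusted p 5.75e-09 by limma). Hk1, the hexokinase found in most tissues, ran from 1.08 over 2.17 to 7.06 in females and from 0.721 over 2.95 to 7.26 in males. The sexes overlapped almost fully for Hk1, whose log2 fold change was 0.15 (SE 0.28, adjusted p 0.675).

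Gpi1, which isomerises glucose 6-phosphate to fructose 6-phosphate, ran from 39.5 over 98.0 to 199.7 in vehicle females and from 45.2 over 111 to 187 in vehicle males. Females and males covered the same range, and the log2 fold change was 0.13 (SE 0.16, adjusted p 0.535). For the liver type of phosphofructokinase, Pfkl, females ran from 1.70 over 3.80 to 8.42 and males from 2.05 over 4.67 to 6.94. For the platelet type, Pfkp, females ran from 5.74 over 12.9 to 31.1 and males from 6.99 over 16.2 to 30.1. Both phosphofructokinase genes overlapped between the sexes, with log2 fold changes of 0.19 (SE 0.19, adjusted p 0.401) for Pfkl and 0.17 (SE 0.24, adjusted p 0.572) for Pfkp.

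Aldoa, the aldolase that splits fructose 1,6-bisphosphate in muscle and most other tissues, ran from 185 over 344 to 485 in vehicle females and from 234 over 508 to 614 in vehicle males. The ranges overlapped, but 10 of 17 males lay above every female and 16 above the female median. The log2 fold change was 0.49 (SE 0.13, adjusted p 6.56e-04). Pgk1, the phosphoglycerate kinase that makes the first ATP of the pathway, ran from 146 over 195 to 255 in females and from 105 over 176 to 268 in males. The males reached both lower and higher than the females, with 6 of 17 below every female and 1 above. Its log2 fold change of -0.22 (SE 0.11) did not pass (adjusted p 0.0766), but it did with the dam as a block (-0.227, adjusted p 0.0267), without the deep F1 libraries (-0.265, adjusted p 0.0253) and with dam as a fixed term in litters that held both sexes (-0.264, adjusted p 0.00689).

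Eno1, the enolase that makes phosphoenolpyruvate, ran from 97.2 over 276 to 601 in vehicle females and from 332 over 772 to 1122 in vehicle males. Here 13 of 17 males lay above every female and 12 females below every male. The log2 fold change was 1.41 (SE 0.24, adjusted p 2.06e-07). The level of Eno1 is uncertain, because the copy gene Gm5506 was listed at 144% of the Eno1 level and followed it with r = 0.999 over the 34 vehicle embryos. How the reads were divided between them was not tested. Summed with Gm5506, Eno1 was higher in males by 1.43 on the log2 scale (permutation p 1e-05, the smallest that 100000 resamples can give). The aldolase copies Aldoart1 and Aldoart2 stood at 1.05% and 0.147% of Aldoa, and Aldoa summed with both was higher in males by 0.49 (permutation p 3.3e-04).

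Pkm, the pyruvate kinase gene of muscle and of dividing cells, ran from 24.7 over 109 to 358 in vehicle females and from 77.8 over 188 to 403 in vehicle males. The ranges overlapped widely, though 15 of 17 males lay above the female median. The log2 fold change was 0.80 (SE 0.26, adjusted p 0.00651), and without the F2 embryos it was 0.68 and no longer passed (adjusted p 0.112). Ldha, which encodes the muscle-type subunit of lactate dehydrogenase, ran from 25.6 over 44.6 to 83.5 in vehicle females and from 9.19 over 18.3 to 32.6 in vehicle males. It was high in females, with 15 of 17 above every male and 15 of 17 males below every female. The log2 fold change was -1.27 (SE 0.20, adjusted p 6.38e-08). The Sertoli marker sum that also moved with sex has its own relation to the members in males given further on, and its part in these differences was not otherwise tested.

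**Figure D1:**
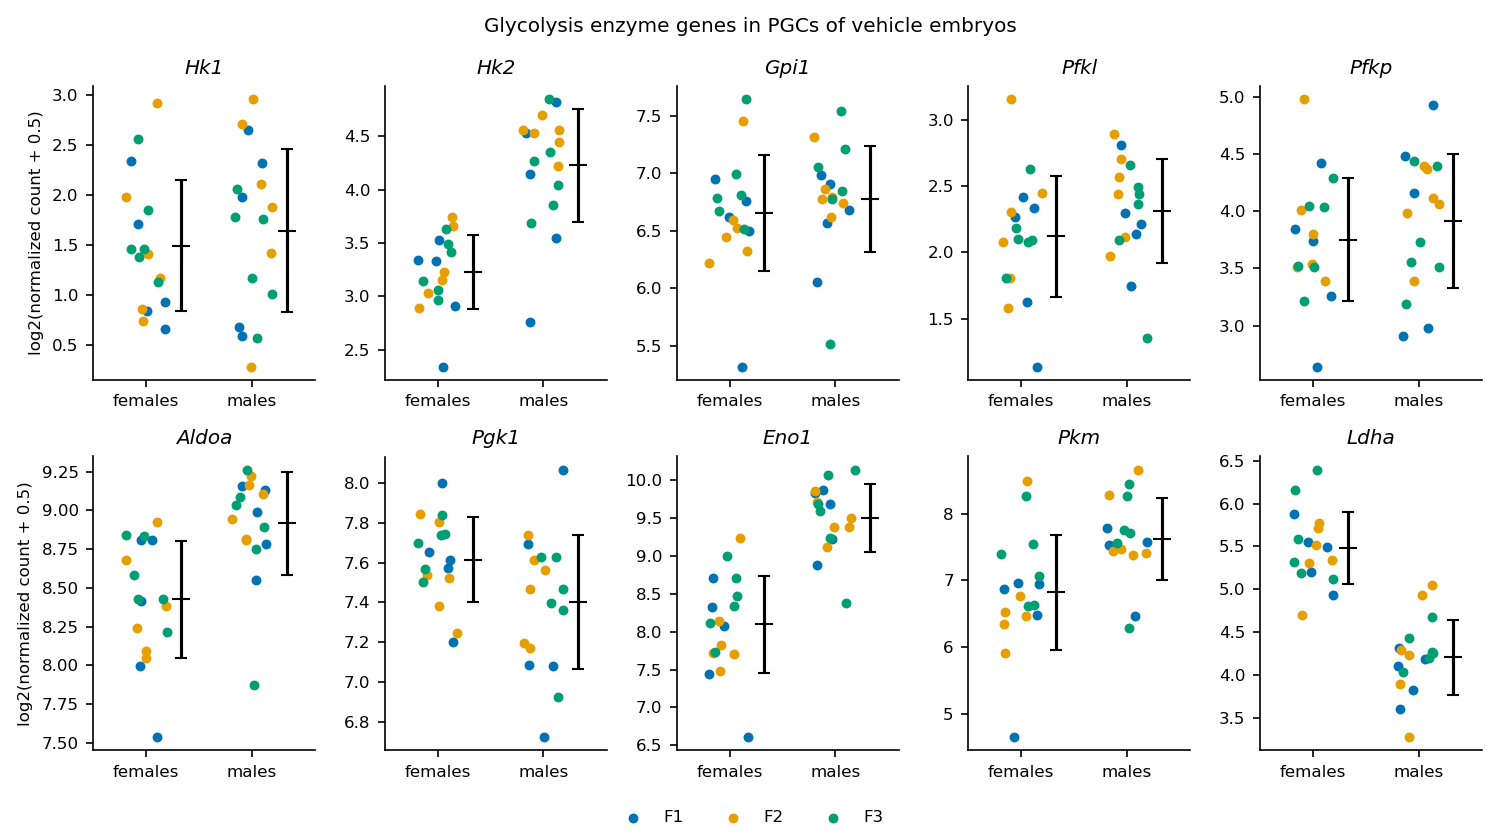
Log2 of the normalized count plus 0.5 of each of the 10 glycolysis enzyme genes in PGCs of 17 female and 17 male vehicle embryos, each point 1 embryo coloured by generation, with the mean and SD beside each sex. For Hk2, 14 of 17 males sit above every female, and for Ldha 15 of 17 females sit above every male.

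Litters with both sexes allowed brothers and sisters to be compared within a dam. In 15 vehicle litters with both sexes, brothers were higher than sisters in 15 litters for Hk2 and Eno1, in 14 for Aldoa and in 12 for Pkm, and in 0 for Ldha. Brothers were higher in 12 litters for Pfkl, 10 for Gpi1 and Pfkp, 8 for Hk1 and 2 for Pgk1. In 27 exposed litters, brothers were higher in 27 for Eno1, in 25 for Hk2, Aldoa and Pkm, and in 1 for Ldha. Blocking on the dam, 62.2% of all genes passed in the comparison of vehicle sexes, and 6 of 10 members did, the 5 above and Pgk1.

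The embryos of the dosed lineages gave a comparison of the sexes in other embryos, 36 males against 31 females. Here 6 of 10 members were higher in males against 33.8% of all genes, and 2 were lower against 33.6% (limma, adjusted p under 0.05). The median log2 fold change was 0.39 for the members and 0.00 for all genes. Eno1 ran from 36.0 over 211 to 761 in exposed females and from 288 over 673 to 1289 in exposed males, with a log2 fold change of 1.54 (SE 0.17, adjusted p 1.01e-13). Hk2 ran from 5.67 over 10.6 to 18.9 and from 9.71 over 17.7 to 25.3, with 0.69 (SE 0.11, adjusted p 1.25e-08). Ldha ran from 12.3 over 33.2 to 52.6 and from 2.14 over 13.3 to 36.7, with -1.21 (SE 0.15, adjusted p 4.09e-12). The sexes overlapped for these 3 genes, but 36 of 36 males lay above the female median for Eno1 and 1 of 36 for Ldha. Pkm (1.10), Aldoa (0.63), Pfkl (0.44, adjusted p 0.00339) and Gpi1 (0.33, adjusted p 0.0104) were also higher in males and Pgk1 (-0.21, adjusted p 0.0110) lower. Without the F2 embryos, which leaves fewer embryos, Pfkl (0.38, adjusted p 0.0530), Gpi1 (0.26, adjusted p 0.154) and Pgk1 (-0.20, adjusted p 0.0842) kept their direction but did not pass. Hk1 (0.05) and Pfkp (0.09) did not pass in the exposed embryos.

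Within single generations, Hk2, Eno1 and Ldha were past the test in all 3. In F1 (5 against 5 vehicle embryos), 2 members were higher in males against 11% of all genes and 1 was lower against 12.8%. F1 females held 97.2, 174, 268, 321 and 416 counts of Eno1 and F1 males 471, 599, 819, 911 and 931. For Ldha, F1 females held 30.1, 36.4, 44.6, 46.5 and 58.5 counts and F1 males 11.6, 13.6, 16.7, 17.7 and 19.4. For both of these genes the 5 males and the 5 females did not overlap, and the share of all genes that separate in this way is not given here. Hk2 in F1 was 4.57, 7.01, 9.58, 9.64 and 11.1 in females and 6.25, 11.2, 17.3, 22.6 and 27.8 in males, which overlapped. Log2 fold changes in F1 were 1.67 for Eno1 (adjusted p 0.00457), 0.87 for Hk2 (0.0219) and -1.41 for Ldha (0.0137). Hk2 in F1 did not pass when vehicle embryo C3774.3, C4232.9, C4321.6 or D2580.2 was left out, with log2 fold changes of 0.65, 0.68, 0.82 and 0.73 (adjusted p 0.0930, 0.0967, 0.0514 and 0.0770). Aldoa passed when C4605.2 or D2580.1 was left out (0.73 for each, adjusted p 0.0373 and 0.0375). With the dam as a block, 5 members passed in F1 against 35% of all genes.

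In F2 (6 against 6), 4 members were higher in males, Hk2, Aldoa, Eno1 and Pkm, against 20.7% of all genes, and Ldha was lower against 20.4%. The log2 fold changes were 1.22 for Hk2, 0.61 for Aldoa, 1.48 for Eno1, 1.01 for Pkm and -1.11 for Ldha. With the edgeR quasi-likelihood test Pkm did not pass in F2, and the other 4 did. Gpi1 passed in F2 when vehicle embryo D3133.2 was left out (0.43, adjusted p 0.0371). In F3 (6 against 6), Hk2 (0.89, adjusted p 0.00579) and Eno1 (1.12, adjusted p 0.0229) were higher in males against 16.4% of all genes, and Ldha (-1.32, adjusted p 0.00256) was lower against 15.8%. Eno1 in F3 did not pass without vehicle embryo D1388.1, D3523.1 or D3651.2, with log2 fold changes of 0.997, 1.01 and 0.989 (adjusted p 0.0560, 0.0529 and 0.0597). The difference between the sexes was itself compared between generations, and 0 members and 0% of all genes passed in each of the 3 comparisons by limma. At an unadjusted p under 0.05, 0 of the 10 members passed in any of the 3, against 1.72% of tests over all genes.

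Levels can be ranked between genes only per length. Per kilobase of the longest transcript, with the caution that cDNA primed from the poly(A) tail need not cover transcripts evenly, Aldoa led in vehicle females (mean level 229, from 119 to 313), followed by Eno1 (147), Pgk1 (108), Pkm (54.6), Gpi1 (36.8), Ldha (25.4), Pfkp (3.36), Hk2 (1.65), Pfkl (1.09) and Hk1 (0.617). Neighbours within the larger of their SDs were Eno1 and Pgk1, Pkm and Gpi1, and Gpi1 and Ldha. In vehicle males Eno1 led (mean level 372, from 164 to 553), followed by Aldoa (318), Pgk1 (94.7), Pkm (87.3), Gpi1 (39.7), Ldha (10.4), Pfkp (3.81), Hk2 (3.5), Pfkl (1.24) and Hk1 (0.727). Here Eno1 and Aldoa, Pgk1 and Pkm, and Pfkp and Hk2 were within the larger SD. The order of Eno1 and Aldoa in females turns with the copy gene: with the counts of Gm5506 added and over the length of Eno1, Eno1 would stand at 356 in females (from 115 to 722), above Aldoa in 16 of 17, and at 914 in males (from 409 to 1354). By mean level Aldoa, Eno1 and Pgk1 thus stood at the top of the order in both sexes, and the hexokinase and phosphofructokinase genes at the bottom. In males Pgk1 was above Pkm in only 9 of 17 embryos.

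Isoenzyme ratios were compared within each embryo by a two-sided permutation test, with p-values adjusted over the 3 ratios. The log2 ratio of Ldha to Ldhb, the heart-type subunit, ran from -4.96 over -4.14 to -2.69 in the 17 vehicle females and from -7.56 over -6.49 to -5.24 in the 17 vehicle males. All 17 females lay above every male, and the mean difference of males from females was -2.49 (permutation p 1e-05, adjusted 3e-05). The ratio of Hk2 to Hk1 ran from 0.58 over 1.74 to 2.87 in females and from 1.57 over 2.56 to 3.94 in males. The males were shifted up with overlap, by 0.85 (permutation p 3.6e-04, adjusted 5.4e-04). The ratio of Pfkp to Pfkl ran from 0.88 over 1.63 to 2.11 in females and from 0.74 over 1.41 to 3.09 in males, which overlapped, though with 3 males above every female and 14 of 17 females above the male median. The mean difference was -0.03 (permutation p 0.889).

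The other enzymes of the pathway were read in the same comparison of vehicle sexes. Of 12 further glycolysis enzymes tested, 6 were higher in males and 4 lower, against 27.9% and 28.6% of all genes. Ldhb rose from a median of 723 counts in females to 1642 in males (log2 fold change 1.22, SE 0.10, adjusted p 3.98e-19), with ranges of 459 to 1135 and 999.8 to 1835. Its per-kilobase level, 529 in females and 1215 in males, stood above each of the 10 members in both sexes. Pgam2, the muscle phosphoglycerate mutase, was higher in males by 2.01 (SE 0.18, adjusted p 1.80e-17), from medians of 1.31 and 7.58 counts. Aldoc, the aldolase of brain, was lower in males by a log2 fold change of -1.16 (SE 0.18, adjusted p 3.33e-08), and Ldhc, the lactate dehydrogenase of the testis, by -0.96 (SE 0.15, adjusted p 3.08e-08).

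Of 6 transport genes tested, 1 was higher in males and 3 lower, against 27.9% and 28.6% of all genes. Slc2a1, the glucose transporter of red cells and many growing cells, was at a median of 5.14 counts in vehicle females and 11.2 in vehicle males (log2 fold change 1.29, SE 0.15). Slc2a3, the transporter typical of neurons, moved the other way, from 13.3 to 8.22 (-0.66, SE 0.14), as did Slc2a12 (-1.11) and Slc16a1, which carries lactate and pyruvate across the membrane (-0.73). Slc2a12 was near the floor, with means of 1.10 counts in vehicle females and 0.246 in vehicle males. Its mean in males, vehicle and exposed, was below the filter of 0.5, so it was tested only through its values in females. Of 15 regulators of glycolysis tested, 6 were higher in males and 2 lower, against the same shares of all genes. Epas1, a hypoxia-inducible factor, was higher in males (2.24, SE 0.18) from a median of 0.411 counts to 4.25. Hnrnpa1, a splicing factor that acts on the Pkm transcript, was higher too (1.02, SE 0.12). Of the genes for enzymes that set fructose 2,6-bisphosphate, an activator of phosphofructokinase, Pfkfb3 was higher in males (1.27, SE 0.18) and Pfkfb2 lower (-1.25, SE 0.17). Pfkfb1, with the highest counts of the 4 such genes (means of 44.5 in vehicle females and 28.4 in vehicle males) and named after its values were seen, was also lower (-0.66, SE 0.12).

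**Figure D2:**
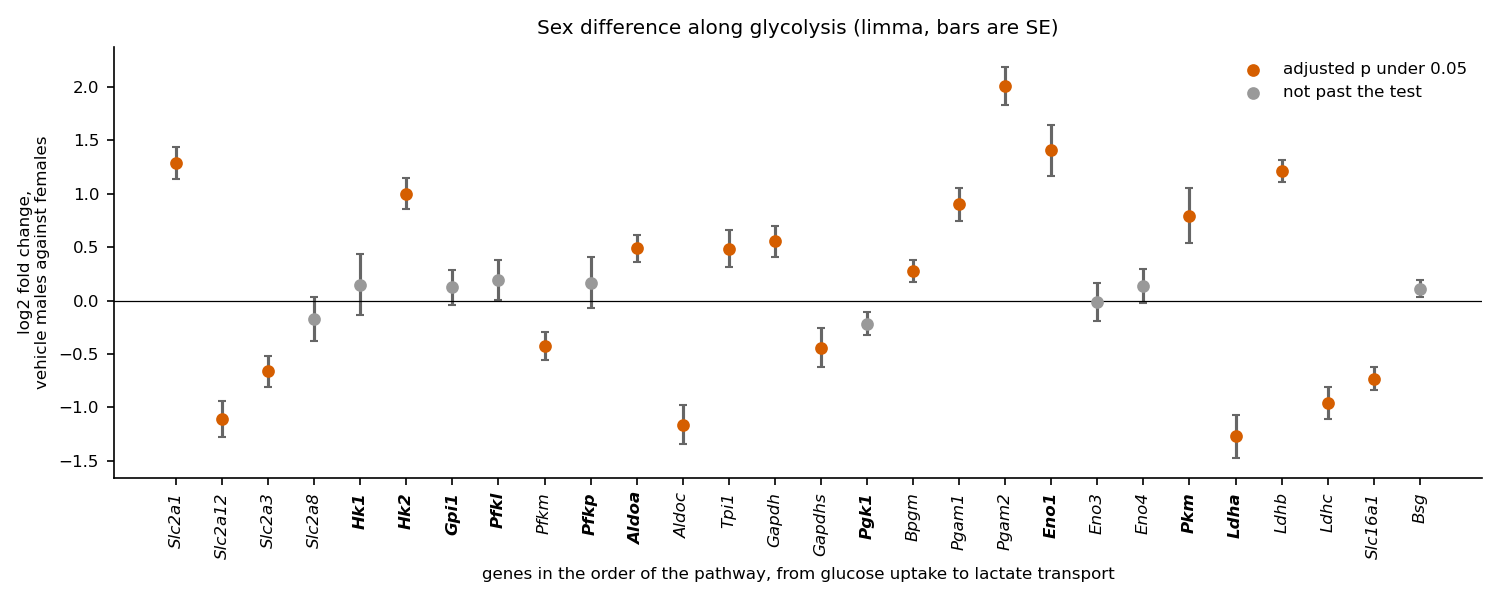
Log2 fold change of vehicle males over vehicle females (17 against 17, limma, bars are SE) of every tested gene of the 10 members (bold), the other glycolysis enzymes and the transport genes, in the order of the pathway. Points in orange passed an adjusted p of 0.05, with Pgam2 highest at 2.01 and Ldha lowest at -1.27.

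Genes that take carbon out of glycolysis were read as well, again beside 27.9% of all genes higher in males and 28.6% lower. Of 12 genes of pyruvate entry into mitochondria, 3 were higher in males and 4 lower. Pdk3, Pdk2 and Pdk1 are kinases that switch off pyruvate dehydrogenase, and they moved apart: Pdk3 (-1.22, SE 0.10) and Pdk2 (-1.32, SE 0.13) were lower in males and Pdk1 higher (0.95, SE 0.13). The phosphatase Pdp1, which switches the complex back on, was lower (-0.77, SE 0.13). Of 7 pentose phosphate genes 0 were higher by limma (G6pdx reached an unadjusted p of 0.0455) and 2 lower, Tkt (-0.69) and Taldo1 (-0.38), both of the non-oxidative branch that returns sugars to glycolysis. Of 5 gluconeogenesis genes 0 were higher and 4 lower, Pcx (-0.60), Pck2 (-0.73), Fbp2 (-0.61) and Fbp1 (-0.60). Mean counts in vehicle females and males were low for Pck2 (1.93 and 0.928), Fbp2 (1.08 and 0.489) and Fbp1 (1.37 and 0.763). For Pcx they were 7.34 and 4.81. Of 5 genes of the branches to serine and glycerol, 1 was higher and 3 lower, with Gpd2 at -1.30, Gpd1 at -0.85 and Psat1 at -0.68, and Phgdh at 0.70 the exception.

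Pgk1 is the X-linked member. Over 533 X-linked genes tested the median log2 fold change of vehicle males over females was -0.58 and 58% passed as higher in females, against 0.01 and 27.4% for 12630 autosomal genes. Pgk1 at -0.22 lay closer to 0 than that median. Of 10 X-linked metabolic genes, 1 was higher in males and 5 lower, led by Idh3g (-1.05, SE 0.06), Pdk3, Phka1 (-1.82, SE 0.18) and Phka2 (-1.13, SE 0.15).

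Promoter sequence was available for all 10 members, 17 windows of 250 bases before to 50 after a start, from the RefSeq annotation of GRCm38.p6. They were searched on both strands for ACGTG, the core bound by hypoxia-inducible factors, for CACGTG, an E-box that contains it, and for GGGCGG, a GC box. ACGTG was in 7 of the 17 windows, of 6 members, and in 19.62% of all 32851 promoter windows. CACGTG was in 1 of the 17 and in 7.15% of all, and GGGCGG in 11 of the 17, of 9 members, and in 35.66% of all. The windows of 1 gene can overlap and share matches, as 2 of Aldoa and 2 of Eno1 do. The 17 windows held 51.3% to 69% G and C, 15 of them above the median of 52.67% over all windows, and the part of this in the counts of matches was not tested. The windows of Hk2 and Ldha are shown because these members had the opposite sex differences, Pkm as another member that was higher in males, and Pgk1 as the X-linked member. Capitals mark ACGTG or its reverse complement CACGT, which run together as CACGTG where they overlap. The windows are chr6:82774405-82774704 (minus strand) for Hk2, chr7:46845554-46845853 (plus strand) for Ldha, chrX:106186850-106187149 (plus strand) for Pgk1 and chr9:59656977-59657276 (plus strand) for Pkm.
Hk2: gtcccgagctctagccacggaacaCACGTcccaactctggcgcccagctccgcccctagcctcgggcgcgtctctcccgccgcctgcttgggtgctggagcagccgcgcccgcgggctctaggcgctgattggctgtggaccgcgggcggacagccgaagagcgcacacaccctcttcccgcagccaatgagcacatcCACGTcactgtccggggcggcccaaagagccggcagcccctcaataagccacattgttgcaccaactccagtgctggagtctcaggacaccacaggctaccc
Ldha: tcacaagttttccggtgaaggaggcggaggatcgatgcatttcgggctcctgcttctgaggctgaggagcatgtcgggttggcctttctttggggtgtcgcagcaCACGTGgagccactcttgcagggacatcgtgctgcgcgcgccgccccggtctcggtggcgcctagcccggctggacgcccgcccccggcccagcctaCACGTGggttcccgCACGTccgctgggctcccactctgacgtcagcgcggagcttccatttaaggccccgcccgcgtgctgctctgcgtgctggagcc
Pgk1: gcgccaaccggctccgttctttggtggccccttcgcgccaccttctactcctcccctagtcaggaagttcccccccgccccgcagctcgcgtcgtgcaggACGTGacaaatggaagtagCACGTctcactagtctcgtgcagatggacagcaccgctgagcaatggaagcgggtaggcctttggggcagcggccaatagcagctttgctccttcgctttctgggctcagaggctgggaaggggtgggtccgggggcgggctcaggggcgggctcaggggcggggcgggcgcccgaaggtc
Pkm: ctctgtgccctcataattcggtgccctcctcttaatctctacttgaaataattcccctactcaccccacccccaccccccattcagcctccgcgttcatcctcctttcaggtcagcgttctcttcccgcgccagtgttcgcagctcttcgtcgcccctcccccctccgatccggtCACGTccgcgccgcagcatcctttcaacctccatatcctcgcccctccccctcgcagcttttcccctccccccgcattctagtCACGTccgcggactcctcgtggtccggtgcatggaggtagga
The Ldha window above held 5 matches to ACGTG on either strand, 4 of them in its 2 copies of CACGTG, and the Hk2, Pgk1 and Pkm windows above 2 each. Ldha and Pkm each have another window, not printed, with 0 matches to ACGTG. A match is a stretch of letters and was not tested as a binding site.

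The members were also set against each other across embryos of the same sex. Over the 17 vehicle females the median Pearson r of the 45 member pairs was 0.73 (0.02 to 0.97), with 36 pairs above 0.5, and over the 17 vehicle males it was 0.37 (-0.33 to 0.91), with 13 pairs above 0.5. The members paired with all other genes had a median r of -0.03 in females, with 17% above 0.5, and of 0.01 in males, with 10.1% above 0.5. The points share library preparation and depth, and the difference between the sexes was not tested. As a description with no test, the gene most like each member over the 34 vehicle embryos, by Pearson r of log2 values against 13181 other genes, was Pdgfa for Hk1 (0.79), Mapk4 for Hk2 (0.86), Dus1l for Gpi1 (0.94), Mybl2 for Pfkl (0.75) and Slc38a1 for Pfkp (0.87). It was Gart for Aldoa (0.95), Hdac1 for Pgk1 (0.86), Gm5506 for Eno1 (0.999), Tufm for Pkm (0.96) and Eci2 for Ldha (0.90). These values pool the sexes. Within females and males r was 0.57 and 0.79 for Hk2 with Mapk4 and 0.57 and 0.68 for Ldha with Eci2, and at least 0.69 in each sex for the other 8.

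Female germ cells differ in how far they have gone into meiosis, so the members were set against an early meiosis score, the mean log2 value of Stra8, Sycp3, Sycp1, Rec8, Dmc1, Smc1b and Prdm9, over 48 females from 48 dams. These relations were added after the data had been seen, 30 in all with those of a male germ cell score and a Sertoli score in the 53 males, and p-values are from permutations, adjusted over the 30. All 7 early meiosis genes were lower in vehicle males than females, most of all Stra8 (-7.40), with Sycp3 the most abundant of them. In females, 8 of 10 members had r below -0.5, as had 15.2% of all 13035 genes, and the median r was -0.65 for the members and 0.02 for all genes.

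Pfkp had the strongest relation, with r = -0.92 and rho = -0.88 (permutation p 1e-05 for both, adjusted 3e-05, the smallest that these permutations give). Without the 2 embryos farthest from the median score r was -0.90, and within F1, F2 and F3 it was -0.93, -0.89 and -0.93. Females with a high meiosis score were thus low in Pfkp in each generation. For Hk1, r was -0.80 and rho -0.75 (permutation p 1e-05 for both, adjusted 3e-05), -0.81 without the 2 farthest embryos, and -0.69, -0.86 and -0.84 within generations. For Hk2, r was -0.74 and rho -0.64 (permutation p 1e-05 for both, adjusted 3e-05), -0.69 without the 2 farthest, and -0.84, -0.65 and -0.72 within generations. Both hexokinases were lower where meiosis genes were higher, in F1, F2 and F3 alike.

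Eno1 (r -0.72, rho -0.73), Aldoa (-0.66, -0.71), Pkm (-0.64, -0.66), Pfkl (-0.59, -0.64) and Pgk1 (-0.57, -0.65) followed, each with a permutation p of 1e-05 for r and for rho (adjusted 3e-05). Without the 2 farthest embryos r was -0.71, -0.66, -0.68, -0.67 and -0.56 in that order. Within generations their r ran from -0.31 (Pgk1 in F1) to -0.91 (Aldoa in F2), all negative. For Gpi1, r was -0.47 (permutation p 7.9e-04, adjusted 0.00198) and rho -0.48 (permutation p 6.1e-04, adjusted 0.00141), -0.54 without the 2 farthest, and -0.42, -0.73 and -0.33 within generations. Ldha stood apart from the other members, with r = 0.06 (permutation p 0.675, adjusted 0.75) and rho = -0.08 (permutation p 0.607, adjusted 0.674). Without the 2 farthest embryos its r was -0.06, and within generations 0.20, -0.52 and 0.26, so the sign differed between generations.

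**Figure D3:**
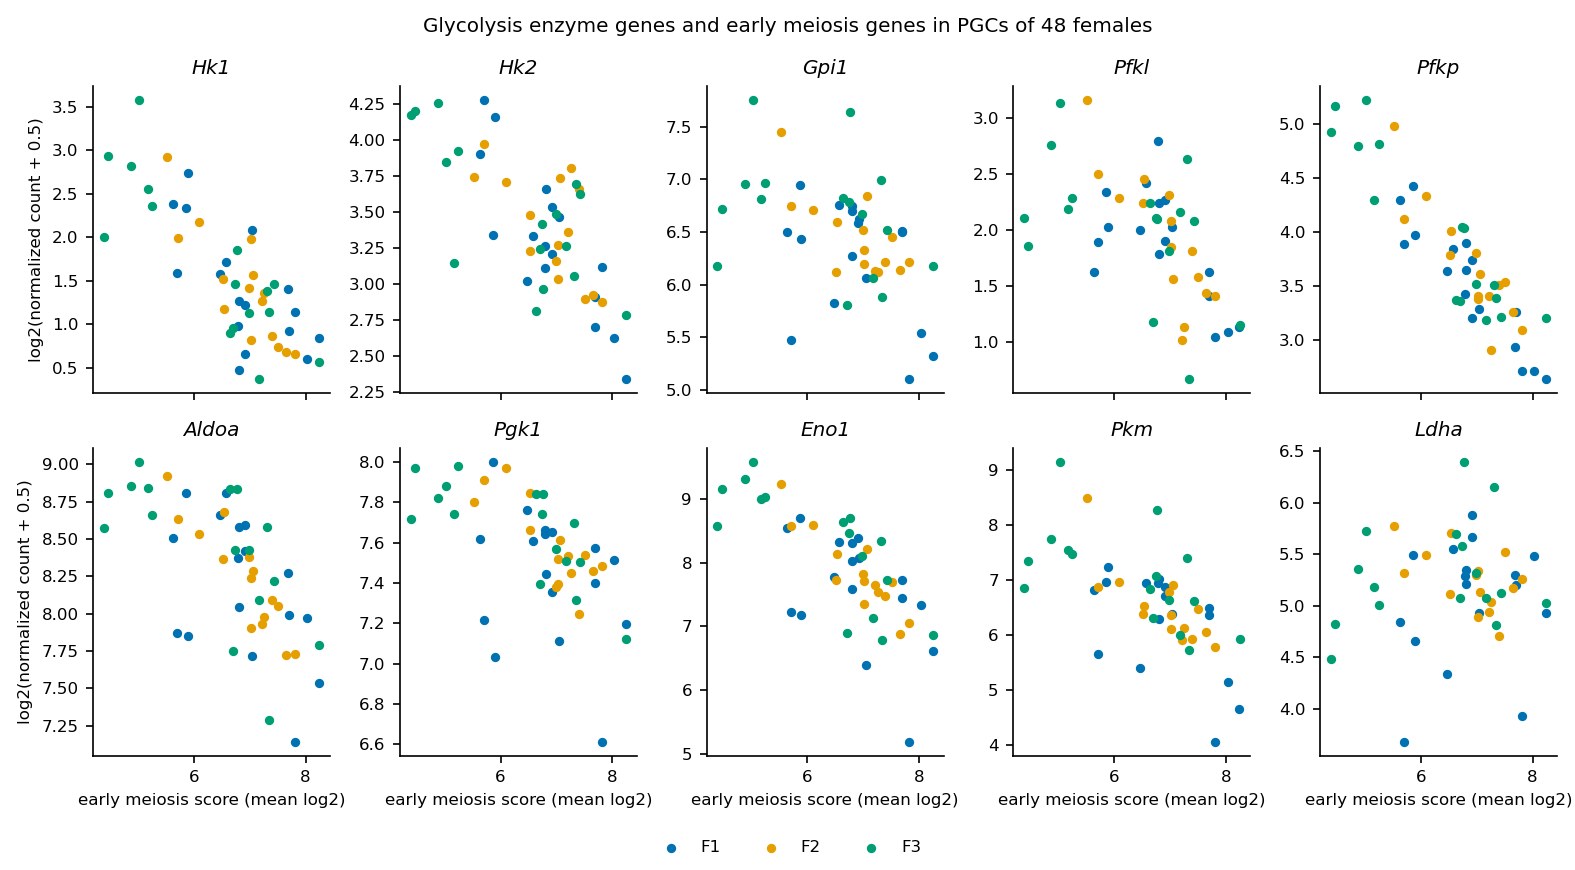
Log2 of the normalized count plus 0.5 of each glycolysis enzyme gene (vertical axis) against the early meiosis score, the mean log2 value of 7 meiosis genes (horizontal axis), in PGCs of 48 females coloured by generation. Pfkp falls along the score with r = -0.92, while Ldha has r = 0.06.

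In the 53 males the same members were set against a male germ cell score (Nanos2, Piwil4, Tdgf1, Lefty2 and Nodal, of which Lefty2 was the most abundant). Of these markers, 4 of 5 were higher in vehicle males, Lefty2 by 6.87. For Hk1, r was -0.67 and rho -0.70 (permutation p 1e-05 for both, adjusted 3e-05), -0.68 without the 2 farthest males, and -0.63, -0.77 and -0.68 within generations. For Pfkp, r was -0.58 and rho -0.68 (permutation p 1e-05 for both, adjusted 3e-05), -0.56 without the 2 farthest, and -0.53, -0.60 and -0.65 within generations. For Hk2, r was -0.54 (permutation p 4e-05, adjusted 1.09e-04) and rho -0.57 (permutation p 2e-05, adjusted 5.45e-05), -0.56 without the 2 farthest, and -0.57, -0.62 and -0.46 within generations. The hexokinases and Pfkp were thus lower in males with more of the male germ cell transcripts. Of the members 3 of 10 had r below -0.5 here, as had 2.9% of all 13079 genes.

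Pgk1 (r -0.40, permutation p 0.00305, adjusted 0.00654; rho -0.42, permutation p 0.00193, adjusted 0.00414; -0.31 without the 2 farthest; -0.30, -0.34 and -0.60 within generations) was weaker with the male germ cell score. Pfkl had r = -0.32 (permutation p 0.0198, adjusted 0.0396) and rho = -0.34 (permutation p 0.0127, adjusted 0.0238), -0.35 without the 2 farthest, and -0.42, -0.15 and -0.27 within generations. The other 5 members had an adjusted p of at least 0.198 for r. With the Sertoli score 0 of 10 members had r below -0.5 or above 0.5, against 1.2% and 4.8% of all 13075 genes, and 2 members passed the permutation test, which was not run over all genes: Pgk1 with r = -0.41 (permutation p 0.00221, adjusted 0.00510) and rho = -0.37 (permutation p 0.00745, adjusted 0.0149), and Ldha with r = 0.31 (permutation p 0.0230, adjusted 0.0431) and rho = 0.48 (permutation p 2.6e-04, adjusted 6.5e-04). Without the 2 farthest males r was -0.39 for Pgk1 and 0.33 for Ldha, and within generations -0.52, -0.21 and -0.49 for Pgk1 and 0.27, 0.69 and 0.09 for Ldha. For Hk2 r with the Sertoli score was 0.21 (permutation p 0.127, rho 0.24, permutation p 0.0769). Without the deep libraries r of Hk2 was 0.33, and within F1, F2 and F3 it was 0.07, 0.65 and 0.06. For Eno1 r was -0.28 (permutation p 0.0424, adjusted 0.0748, rho -0.28, permutation p 0.0435).

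The next comparisons asked whether F0 exposure to BaP altered the glycolysis genes, at 3 doses and over all doses, in each sex and generation. By limma 0 of 10 members passed in any of the 24 comparisons of single generations. Of all genes tested 0% passed in 22 of them, 0.00733% in F1 females at 2 mg/kg-day and 0.145% in F2 males at 0.2 mg/kg-day. At an unadjusted p under 0.05, 16 of 240 member tests passed, against 4.64% of the tests over all genes. Of these, 1 was in F1 females at 2 mg/kg-day, where 9.89% of all genes passed. In F2 males they were 3 against 9.58% at 0.2, 2 against 1.57% at 0.033 and 2 against 4.77% over all doses. In F2 females they were 1 against 2.42% at 0.2, 1 against 4.61% at 2 and 1 against 3.64% over all doses. In F3 they were 2 against 12.8% in females at 0.2 and 1 against 15.4% at 2, and 2 against 10.6% in males at 0.2. The tests over all doses reuse the embryos of the single doses. Counts of members by adjusted p were also 0 with the edgeR likelihood ratio test (0.0634% of all tests), the edgeR quasi-likelihood test (0.00345%) and limma with the dam as a block (0.00627%).

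Hk2 had the smallest p of the members in F2 males at 0.2 mg/kg-day. The 3 exposed males held 9.71, 15.1 and 15.5 counts of Hk2, and the 6 vehicle males ran from 18.2 over 22.8 to 25.5. All 3 exposed males lay below every vehicle male, with a log2 fold change of -0.73 (SE 0.22), but the adjusted p was 0.145. These 3 males also had male germ cell scores of 3.35 to 3.81, above the 2.81 to 3.34 of the vehicle males, and Sertoli scores of 1.10 to 4.10 against 3.71 to 5.91. In F1 females at 2 mg/kg-day Hk2 held 7.61, 12.1, 14.4, 17.4 and 18.9 counts against 4.57, 7.01, 9.58, 9.64 and 11.1 in vehicle females. Of the 5 exposed females 4 lay above every vehicle female, with a log2 fold change of 0.71 (SE 0.28, adjusted p 0.434 by limma). Their early meiosis scores ran from 5.63 over 5.89 to 6.81, against 5.86 over 6.92 to 8.24 in the vehicle females, and their male germ cell scores from -0.344 over 0.378 to 0.831, against -0.260 to -0.0393. The highest and the lowest exposed female and the lowest vehicle female for Hk2 are deep libraries, and without the deep libraries the log2 fold change was 0.63 (SE 0.24, adjusted p 0.858). In F3 males at 0.2 mg/kg-day Hk1 held 2.77, 4.45, 7.74 and 9.91 counts, and the 6 vehicle males ran from 0.987 to 3.69. Here 3 of 4 exposed males lay above every vehicle male (1.22, SE 0.48, adjusted p 0.342 by limma), and the male germ cell scores ran from 2.23 to 3.38 against 2.80 to 3.79. Of these males D1390.1 and D1390.5, at 7.74 and 4.45 counts, share a dam, and D1390.5 had the score of 2.23.

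In F3 females at 0.2 mg/kg-day Pfkp held 27.7 and 36.9 counts in 2 embryos, above the 8.81 to 19.1 of the 6 vehicle females (1.25, SE 0.53, adjusted p 0.354 by limma). The same 2 females had low early meiosis scores, 5.24 and 5.02 against 5.17 to 7.43 in the vehicle females, and male germ cell scores of 0.903 and 0.888 against -0.265 to 0.131. In F3 females at 2 mg/kg-day Gpi1 held 55.6, 58.4, 71.8 and 112.8 counts against 91.2 to 199.7 in vehicle females. The lower 3 of the 4 lay below every vehicle female (-0.73, SE 0.30, adjusted p 0.253 by limma), with early meiosis scores of 4.39 to 7.34 in the 4. In F2 females at 0.2 mg/kg-day Pfkl held 1.70, 2.21 and 2.46 counts, each below the lowest vehicle female at 2.49 (-0.85, SE 0.32, adjusted p 1 by limma), with early meiosis scores of 7.06 to 7.65 against 5.52 to 7.51. In F2 females at 2 mg/kg-day Pfkl held 1.52, 2.16 and 4.23 counts, 2 of them below every vehicle female (-0.67, SE 0.32, adjusted p 0.810 by limma), with early meiosis scores of 6.52 to 7.81. In F2 males at 0.033 mg/kg-day Pfkp held 7.70, 9.13 and 13.9 counts against 9.97 to 20.53 in vehicle males, again with 2 of 3 below every vehicle male (-0.67, SE 0.30, adjusted p 1 by limma). The male germ cell scores of these 2 were 3.40 and 3.52, above the 2.81 to 3.34 of the vehicle males, and that of the third was 3.03. Over all doses Pfkl in F2 females (-0.51, SE 0.24, adjusted p 0.924) and Hk2 in F2 males (-0.49, SE 0.16, adjusted p 0.743) had an unadjusted p under 0.05. Each of these differences was in the members chosen for the smallest p, and none passed over all genes. The share of all genes that separate the same small groups is not given here, so a lack of overlap is only a description. The part of the marker scores in them was not tested, and that of depth only for Hk2 in F1 females, by leaving out the deep libraries. In the other comparisons of single generations no member had an unadjusted p under 0.05.

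**Figure D4:**
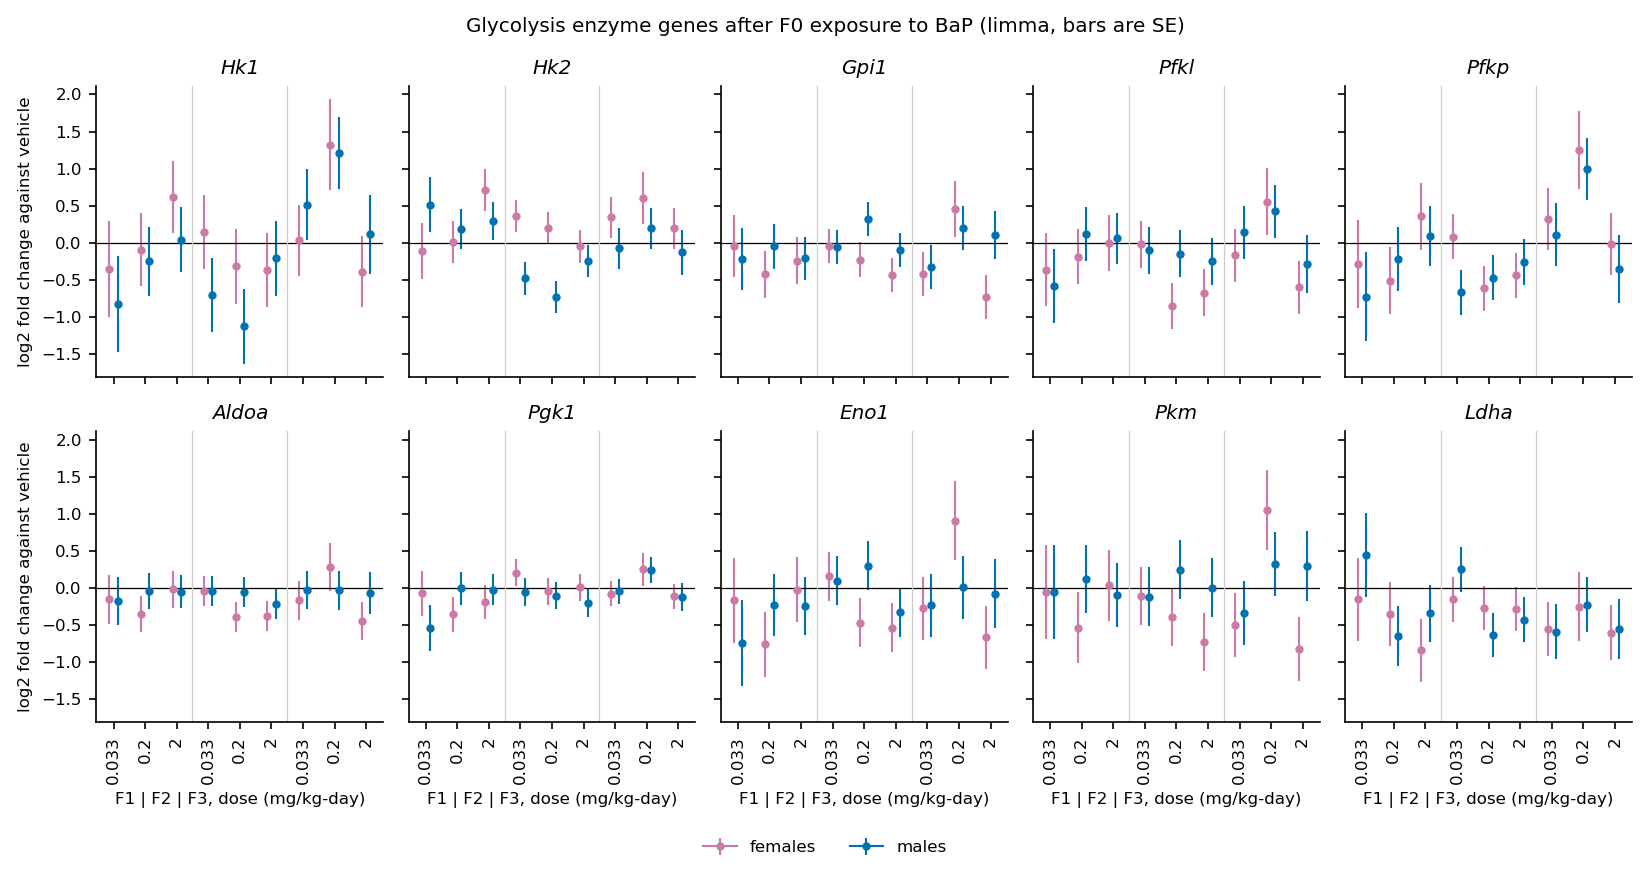
Log2 fold change against vehicle of the same sex and generation (limma, bars are SE) of each glycolysis enzyme gene at 0.033, 0.2 and 2 mg/kg-day in F1, F2 and F3 embryos, females in pink and males in blue. None of the points passed an adjusted p of 0.05, and Hk2 in F2 males at 0.2 mg/kg-day, at -0.73, had the smallest adjusted p of the 10 genes among them.

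Over all generations, 0 of 10 members passed by limma in any of the 8 comparisons. Of all 13288 genes, 1.36% passed in females at 2 mg/kg-day and 0% in each of the others. At an unadjusted p under 0.05, 8 of 80 member tests passed against 6.03% of tests over all genes. The share of all genes was uneven. In females at 2 mg/kg-day 3 members passed against 23.3% of all genes, and over all doses 2 against 8.67%. In males 1 member passed at 0.2 against 3.36%, 1 at 2 against 3.91% and 1 over all doses against 1.14%. By adjusted p, 0 members passed with the edgeR likelihood ratio test (0.171% of all tests), the edgeR quasi-likelihood test (0.0498%) or the dam block (0.419%). Ldha had the smallest p of the members in females at 2 mg/kg-day: the 12 exposed females ran from 12.3 over a median of 29.2 to 51.5 counts and the 17 vehicle females from 25.6 over 44.6 to 83.5. The exposed females sat lower with a broad overlap (log2 fold change -0.63, SE 0.22, adjusted p 0.0803). Their early meiosis scores ran from 4.39 over 6.58 to 7.81, against 5.17 over 6.98 to 8.24 in the vehicle females. Male germ cell scores ran from -0.478 over 0.0169 to 0.831, against -0.265 over -0.0393 to 0.450. The 3 erythroid genes tested had a median log2 fold change of 2.04, with 0 past the test. The part of these markers in Ldha was not tested. In males Ldha had the smallest p of the members at 0.2 mg/kg-day, where 13 embryos ran from 2.14 over 11.9 to 30.6 against 9.19 over 18.3 to 32.6 in vehicle males (-0.56, SE 0.22, adjusted p 1). It also had the smallest p in males at 2 mg/kg-day (-0.49, SE 0.21, adjusted p 0.997), and over all doses in females (-0.43, SE 0.18, adjusted p 0.563) and males (-0.37, SE 0.18, adjusted p 1). The lowest values of Ldha in each of these 3 dose groups were from deep F1 libraries, 12.3 and 19.7 in females, 2.14 in males at 0.2 and 5.85 and 6.74 in males at 2 mg/kg-day. Without the deep libraries the log2 fold changes of Ldha were smaller, -0.49 (SE 0.20, adjusted p 0.163) in females at 2 mg/kg-day, and -0.41 (SE 0.20, adjusted p 0.834) and -0.33 (SE 0.20, adjusted p 1) in males at 0.2 and 2 mg/kg-day. The dose groups of a sex share their vehicle embryos, so these values are not independent. Gpi1 in females at 2 mg/kg-day ran from 44.0 over 70.6 to 112.8 counts against 39.5 over 98.0 to 199.7 (-0.48, SE 0.18, adjusted p 0.0967), and was at -0.46 (SE 0.16, adjusted p 0.112) without the deep libraries. Of the 12 other glycolysis enzymes, 1 passed in that comparison, Aldoc at -0.72 (SE 0.20, adjusted p 0.0481).

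Whether the effect of exposure over all doses differed between the sexes was tested in each generation and over all. By limma 0 of 10 members passed and 0% of all genes passed in each of the 4 tests, and at an unadjusted p under 0.05 only Hk2 in F2 did among the members, against 2.08% of tests over all genes. For Hk2 in F2 the effect in males less the effect in females was -0.66 (SE 0.23, p 0.00778, adjusted p 1 by limma). Both edgeR tests and limma with the dam as a block also gave 0 members. Over all generations the likelihood ratio test called 4 of 13291 genes and the quasi-likelihood test 7. The dam block called 1 of 13288 genes there, and within single generations each of the 3 called 0 genes.

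Vehicle embryos were last compared between generations within each sex. By limma 0 of 10 members passed in each of the 6 comparisons, and 0% of all genes did. At an unadjusted p under 0.05, 2 member tests passed against 3.18% of tests over all genes: Pkm in F3 over F1 females (log2 fold change 0.87, SE 0.40, adjusted p 0.934) and Hk2 in F2 over F1 males (0.54, SE 0.26, adjusted p 0.900). Hk2 in vehicle males had means of 17.02 (SD 8.63), 22.3 (SD 2.43) and 18.2 (SD 5.69) in F1, F2 and F3, and in vehicle females 8.37 (SD 2.58), 9.50 (SD 2.44) and 9.37 (SD 1.81).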

How the data were processed

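RNA-seq values of PGCs from 101 single embryos were used as deposited. The authors trimmed reads with Trim Galore, aligned them to mm10 with STAR, counted them on exons and scaled them with edgeR (versions not given); the deposited unit is a signal, TMM-normalized counts on a per-million scale. Log2(value + 0.5) was tested, for genes whose mean reached 0.5, with limma 3.58.1 and a mean-variance trend in R 4.3.3, with 8 sex-by-dose groups per generation or over all generations, and p-values were adjusted by Benjamini-Hochberg over all genes tested. Reads were recovered for 99 embryos as whole multiples of a step (within 0.05 for 100% of nonzero values) and tested with edgeR 4.0.16; male D4190.1 (F3, 2 mg/kg-day) and female D1388.3 (F3, vehicle) gave no step and are missing there. Permutation tests used 100000 resamples, two-sided, in Python 3.11.15 with numpy 2.4.6 and pandas 2.3.3. The alternatives were pseudocounts of 0.1 and 1, no filter and a minimum mean of 5, upper quartile scaling, both edgeR tests, the dam as a block (correlation 0.262 over all embryos, 0.195 in vehicle embryos) or fixed term, generation as a term, vehicle embryos alone, and leaving out the deep libraries, a generation, F3 male D1390.5 or single embryos in groups of 2 to 5 and in the vehicle groups. Sums with copy genes and the correlations with marker scores were chosen after seeing the data. The members and lists were chosen with earlier results of these data known. All 10 members are named; in the exposure comparisons with a member at an unadjusted p under 0.05 (a limit set after seeing the data) the member with the smallest p is described, and in other lists up to 4 genes with the smallest p among those past the test and the top gene of each marker list. Genes of the lists with no row in the table were not analysed. Counting limits from reads cover counting error only.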

Additional observations from a re-analysis of the deposited data

Results flagged for a closer look

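A sample far from the others of its group, by the gap to its nearest neighbour on the log2 scale against the range of the group, was found in 12 of 140 checks of a member in a group of 4 to 10 embryos, where chance gives about 1 in 20. Among vehicle embryos, F1 female C4232.9, a deep library, was low for Gpi1 (39.45 against 90.1 to 123) and for Pkm (24.66 against 89.4 to 124). F1 male C3774.3, also a deep library, was low for Pkm (88.18 against 182 to 221). F2 female D3133.2 was high for Gpi1 (174.7 against 73.9 to 96.1) and for Pkm (357.8 against 59.9 to 109). F2 male D2996.2 was high for Gpi1 (159.2 against 98.2 to 116), and F3 male D3402.3 was low for Aldoa (234 against 430 to 614). Among exposed embryos, Pfkp was high in F1 male D2593.1 at 2 mg/kg-day (51.3 against 9.26 to 20.9), in F1 male D1190.1 at 0.2 mg/kg-day (57.22 against 6.06 to 14.1) and in F3 female E0103.2 at 2 mg/kg-day (29.88 against 9.77 to 9.97). Hk1 was high in the same F1 male D1190.1 (7.629 against 0.754 to 2.01). Ldha was low in F3 male D2549.3 at 0.033 mg/kg-day (2.668 against 18.1 to 22.5). The effect of leaving out the vehicle embryos on the calls is given with the comparison of the sexes, and C4232.9 had the highest early meiosis score of the vehicle females (8.24), D3133.2 the lowest of the F2 vehicle females (5.52) and E0103.2 the lowest of all 48 females (4.39). C3774.3 had the lowest Sertoli score of the vehicle males (1.21). Within its group, D2593.1 had the lowest male germ cell score (2.93), and D2996.2 and D2549.3 the highest (3.34 and 3.64). That of D1190.1, high for Hk1 and Pfkp, was 3.37, inside the range of its group (2.85 to 3.85). The part of depth and of these scores in the far values was not tested.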

How the results depend on the processing

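Of 252 checks on counts of members past a test, 250 stayed within 1.5 times the reported count. The limit is wide for such small counts, as 2 against 3 lies within it. Of the checks, 87 left out 1 embryo and counted members in the dose comparisons, where the count of 0 stayed at 0. The exposed sex comparison gave 5 members in place of 8 without the F2 embryos, and the F1 vehicle sex comparison gave 5 in place of 3 with the dam as a block; the first has fewer embryos and the cause was not tested otherwise. Leaving out single embryos gave 2 to 4 members in F1, 5 to 6 in F2 and 2 to 3 in F3, and 0 to 0 in the dose comparisons and in those between generations. Of the values of single genes over all generations, 3 changed sign, none of them past the test: Hk1 in exposed males against females was -0.001135 with the dam as a block and -0.09583 without F3, and Pfkp was -0.0102 without F1, and the cause was not tested. The log2 fold changes of Pkm, Gpi1, Pfkl and Pgk1 that lost or gained a call are given in the report, as are 2 levels of Eno1 that moved when summed with its copy, and 336 other values kept their direction and their side of the threshold. Leaving out single vehicle embryos gave 340 further values within generations. Of these 9 changed sign, none past the test: Gpi1 was -0.067 in F1 without C4232.9, and 0.069 and 0.183 in F3 without D1344.3 and D3402.3, Pfkl was -0.00079 in F3 without D1388.1, and Pfkp changed 5 times in F3 (-0.097 to -0.020). A call was lost 7 times (Hk2 in F1, Eno1 in F3) and gained 3 times (Aldoa in F1, Gpi1 in F2), as given in the report. In the vehicle lineages Hk2 ran from 0.88 to 1.07, Eno1 from 1.28 to 1.56, Aldoa from 0.42 to 0.61, Pkm from 0.68 to 1.0 and Ldha from -1.36 to -1.21 over the alternatives. Vehicle embryos fitted alone and a fixed dam term were run only for the sexes. Hk1 and Pfkl, with as few as 3 and 7 reads in an embryo, are the members whose precision depth limits most.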
